A study of Mus musculus with 2 samples.

Results

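Ribosomal protein genes encode the protein parts of the cytoplasmic ribosome. They were taken as the protein-coding genes on mouse autosomes and chromosome X whose RefSeq symbol is Rpl or Rps with a number and an optional a, l or x and digit, together with Rplp0, Rplp1, Rplp2 and Rpsa. Kinase genes of the Rps6k family were left out. This gave 85 of 21631 protein-coding genes, 53 of the large subunit and 32 of the small subunit. Brg1 is the motor subunit of BAF (SWI/SNF) chromatin remodellers, and its binding at these genes was read from ChIP-seq of primary mouse medulloblastoma. The tumours formed spontaneously in CAG-CreER, Rosa26-SmoM2 mice, in which the broadly active CAG promoter drives an inducible Cre and SmoM2 is an activated Smoothened. The labels list no treatment, age or number of tumours. There was 1 ChIP library, made with the J1 antibody against Brg1 and its paralogue Brm, and 1 input library of the same genotype, which is not analysed here.

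The large ribosomal subunit joins amino acids into a chain and passes the chain out through a tunnel, and the small subunit reads the messenger RNA. Each cytoplasmic ribosomal protein is usually made from 1 active gene that is short, transcribed at a high rate in growing cells and accompanied by many silent processed copies. Their messages typically begin with a run of pyrimidines at the transcription start, and many of the genes host small nucleolar RNAs (snoRNAs) in their introns. SWI/SNF remodellers move or evict nucleosomes, often at promoters and enhancers.

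The authors' list held 5727 enriched regions, called islands, with a median of 68 reads (interquartile range 56 to 86) and a median width of 2200 bp (1600 to 3000). The reads in islands numbered 472238, while the total depth of the library is not known. Intervals on reads cover counting error only, and those on shares and differences treat genes as independent draws and leave out error in the island calls. A single library gives no error between animals and no test. Markers of granule neuron progenitors, the cell of origin of Shh-type tumours, all had an island within 5 kb of a gene end (5 of 5: Atoh1, Zic1, Barhl1, Meis1 and Neurod1). The lists were chosen with earlier results of these data known, so this count is a description and no independent check of cell type. Markers of liver (0 of 4), microglia (0 of 4) and endothelium (1 of 4, Cdh5 with 50 reads) had few. The share over all protein-coding genes was 13.1%, so lists of 4 genes would have few in any case. These lists are too short for a limit on a count of 0 to be informative. Only called regions are listed, and absence from the list does not show absence of Brg1.

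Islands within 5 kb of an end were found at large subunit genes and at none of the small subunit genes. An island lay there in 10 of the 85 ribosomal protein genes (11.8%, Wilson 95% interval 6.52 to 20.3), and the background over all 21631 protein-coding genes was 13.1%. For the family as a whole this share was close to the background. All 10 genes were of the large subunit: Rpl4, Rpl7, Rpl12, Rpl17, Rpl23a, Rpl27, Rpl28, Rpl29, Rpl37 and Rpl37a. They made 18.9% of the 53 large subunit genes (Wilson 95% interval 10.6 to 31.4). None of the 32 small subunit genes had one, where 3 counts would make 9.38% and the Wilson upper bound is 10.7%. The difference was 18.9 percentage points (Newcombe 95% interval 5.32 to 31.4). This interval treats genes as independent draws, and no p-value is given because genes of 1 library are not replicates. The interval of the large subunit spans the background of 13.1%, and that of the small subunit ends below it. Against the 8605 genes no longer than the longest member (11774 bp), with a background of 9.11%, both readings turned. The small subunit interval included this background and the large subunit interval lay above it. That set has an upper limit on length only and is not matched to the lengths of the members.

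**Figure D1:**
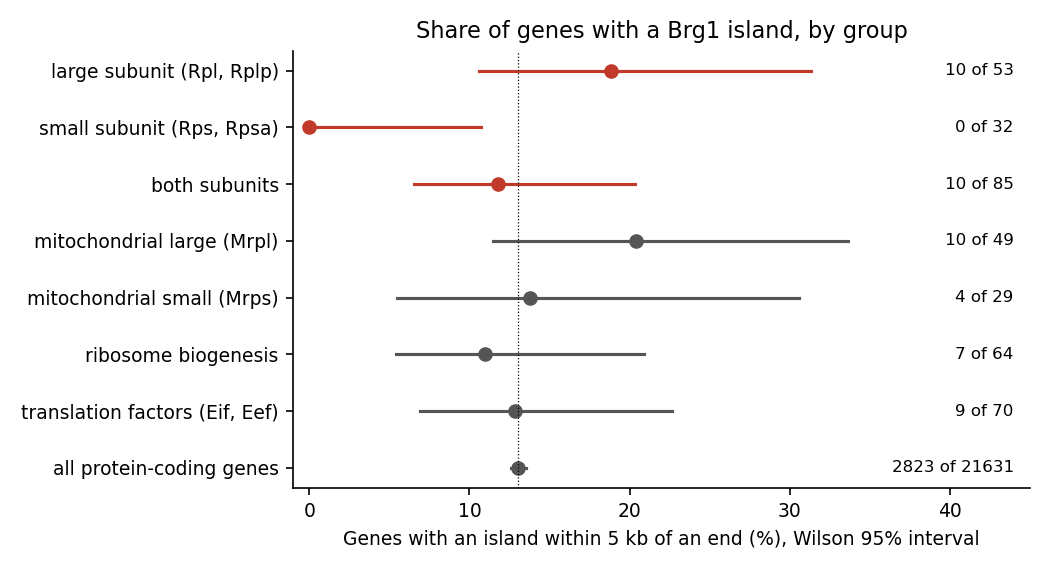
Share of genes with a Brg1 island within 5 kb of an end, in percent, for ribosomal protein genes (red) and for related groups and all protein-coding genes (grey); points are shares, lines are Wilson 95% intervals, the dotted line is the share of all protein-coding genes and the numbers at the right are counts. The large subunit stands at 10 of 53 and the small subunit at 0 of 32, while both subunits together stand at 10 of 85.

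How far the subunits stood apart depended on which islands were used and how they were assigned. With islands of at least the median reads, 1 large and 0 small subunit genes had one, at a background of 7.2%, and the difference was 1.89 percentage points (Newcombe 95% interval -8.94 to 9.94). Within 1 kb of an end, 7 large subunit genes and 0 small subunit genes had an island, where the background was 9.81% and the difference was 13.2 percentage points (Newcombe 95% interval 0.589 to 24.8). With a window of 10 kb the counts were 12 large and 2 small, the background was 15.8%, and the interval of the difference reached below 0 (16.4 percentage points, -0.268 to 30.05). It also reached below 0 when each island counted only for the gene end nearest to its midpoint: 6 large and 0 small subunit genes, at a background of 10.2% (11.3 percentage points, -0.976 to 22.6). The Wilson upper bound of 10.7% for 0 of 32 small subunit genes lies above the backgrounds at 1 kb and for nearest ends. Among the 65 members with a listed transcription start, 6 of 41 large and 0 of 24 small subunit genes had an island within 5 kb of it, at a background of 11.1% (14.6 percentage points, -1.19 to 28.4). Adding the gene's interior to the windows gave 10 large and 0 small subunit genes again (background 16.9%). So did the island midpoint in the window (12.2%) and islands of at least 1 kb (12.9%). The interior could add islands only for Rps15a, because windows of 5 kb at both ends already cover genes under 10 kb. The midpoint and width settings only remove islands, so they could not raise the small subunit count of 0. All 10 islands were at least 1000 bp wide.

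The promoter stretches below are those of the 4 large subunit genes whose island covered or adjoined the listed start, with that of Rps10, the small subunit gene closest to an island. Each runs 5′ to 3′ on the gene's strand from 150 bases before the RefSeq start through the first 30 bases of the transcript (RefSeq, GRCm38.p6, which is mm10). Capitals mark matches to letter patterns searched on both strands over 300 bases. The pattern CCGGAAG is bound by factors of the ETS family. The core of the YY1 site was searched as ATGGCGG, and the site of Sp1 and its relatives was searched as GGGCGG. The E-box of Myc and related factors was searched as CACGTG, and the NRF1 site as GCGCATGC. The TATA box, which is rare in housekeeping promoters, was searched as TATAAA. They also mark CTTTCC and the like pattern CTTTTC, pyrimidine runs searched on the sense strand from 10 bases before the start to 20 after it. The stretches come from chr1:72711110-72711289, chr11:101442095-101442274, chr9:64173237-64173416 and chr15:5116463-5116642 on the plus strand and chr17:27635215-27635394 on the minus strand.
Rpl37a: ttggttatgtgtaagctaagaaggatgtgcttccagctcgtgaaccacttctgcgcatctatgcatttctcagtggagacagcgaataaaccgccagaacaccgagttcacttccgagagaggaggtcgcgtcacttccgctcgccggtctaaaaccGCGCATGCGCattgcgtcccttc
Rpl27: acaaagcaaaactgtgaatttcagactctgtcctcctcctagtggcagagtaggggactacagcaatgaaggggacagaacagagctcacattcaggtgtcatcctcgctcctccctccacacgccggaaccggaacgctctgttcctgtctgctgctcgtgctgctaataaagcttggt
Rpl4: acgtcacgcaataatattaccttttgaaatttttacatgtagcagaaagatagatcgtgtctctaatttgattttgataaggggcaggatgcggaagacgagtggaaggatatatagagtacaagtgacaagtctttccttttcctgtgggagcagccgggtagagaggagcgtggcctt
Rpl37: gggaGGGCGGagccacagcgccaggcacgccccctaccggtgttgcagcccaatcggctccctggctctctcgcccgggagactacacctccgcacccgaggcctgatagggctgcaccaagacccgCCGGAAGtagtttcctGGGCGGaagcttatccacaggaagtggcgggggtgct
Rps10: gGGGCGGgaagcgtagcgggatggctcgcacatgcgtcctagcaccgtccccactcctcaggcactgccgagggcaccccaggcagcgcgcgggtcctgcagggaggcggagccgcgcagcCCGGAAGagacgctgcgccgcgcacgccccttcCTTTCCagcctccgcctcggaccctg

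The 4 promoters at islands shared none of these patterns across all of them. Rpl37a held an overlapping pair of matches to GCGCATGC, at positions 8 and 10, where the start is 1 and the base before it is -1. That pattern occurred in 3.55% of 21045 protein-coding promoters of the same length. Rpl37 held CCGGAAG at position -23 and again at 35, outside the stretch shown (11.7% of promoters), and GGGCGG at -146 and -7 (46.7%). Rpl27 had only a GGGCGG match at position -220, outside the stretch shown, and Rpl4 had no match to the patterns searched over 300 bases. The stretch of Rpl4 does hold CTTTCC and, overlapping its end, CTTTTC. Both begin more than 10 bases before the start, so they were not counted and are in lower case. Rps10, without an island within 5 kb, held CCGGAAG at position -29, GGGCGG at -166 and -149, and CTTTCC at 5. The pattern CTTTCC was found near the start in 1.25% of promoters, CTTTTC in 0.87% and either of them in 2.1%. CTTTCC or CTTTTC also occurred near the start of Rpl28 and Rpl12 (both at 3), which have an island within 5 kb. The same holds for Rpl18 and Rpl27a (both at 4), whose nearest islands lie between 5 and 20 kb away. Neither pattern was found near the listed start of Rpl4, Rpl27, Rpl37, Rpl37a, Rpl22, Rps25 or Rps15a. A match is a match of letters and not a measured binding site. Only 65 of the 85 members (76.5%) have a promoter in the table, so a comparison of motifs, GC or CpG content over the family is void at a minimum of 80%.

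Rpl4, whose protein lines the exit tunnel of the large subunit, had the island with the most reads in the family. It held 130 reads (exact Poisson 95% interval 109 to 154) over 5000 bp, at chr9:64172394-64177393. Of all islands in the list, 94.4% had fewer reads. It ran across the start of Rpl4 and over 4007 bp of the 5176 bp gene, and ended 1169 bp before its far end. The same island reached an end of Zwilch, a kinetochore gene, and lay 1904 bp from Snapc5, a gene of the snRNA-activating complex, so its reads cannot be given to 1 gene.

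Rpl27 and Rpl37a had an island across the start with no other protein-coding gene end within 5 kb of it. At Rpl27 it held 55 reads (41.4 to 71.6) over 1800 bp at chr11:101441487-101443286, with its midpoint 142 bp after the start. At Rpl37a it held 51 reads (37.97 to 67.1) over 1400 bp at chr1:72710827-72712226, with its midpoint 266 bp after the start. These are the 2 islands of the family that were shared with no other protein-coding gene end. Non-coding genes and gene interiors were not considered in this count. Their read intervals overlap each other and lie below the 130 reads at Rpl4. In the whole list 21.3% of islands had fewer reads than that of Rpl27 and 13.8% fewer than that of Rpl37a.

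Rpl37 had an island that ended 13 bp before its listed start (chr15:5115201-5116600, 48 reads, exact Poisson 95% interval 35.4 to 63.6). It overlapped an end of Card6, a gene with a caspase recruitment domain, and its midpoint was nearer to Card6. At Rpl7 an island of 66 reads (51.04 to 84.0) lay 87 bp outside the higher-coordinate end (chr1:16104520-16106719) and overlapped an end of the retinol dehydrogenase gene Rdh10, to which its midpoint was nearer. At Rpl29 an island of 41 reads (29.4 to 55.6) over 1000 bp lay across the lower-coordinate end (chr9:106428870-106429869), with Acy1, an aminoacylase gene, 3112 bp away. It was the smallest island of the family in both width and reads. Rpl17, whose protein also reaches the exit tunnel, had an island of 66 reads over 2200 bp that lay wholly within it, starting 169 bp from the lower-coordinate end. No start is listed for Rpl7, Rpl29 or Rpl17, so coordinates alone give the side.

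The other 3 islands lay over 2 kb outside the genes. Rpl28 had one 2167 bp before its start (chr7:4788399-4790798, 63 reads, exact Poisson 95% interval 48.4 to 80.6), which overlapped an end of Tmem238. Rpl12, a protein at the base of the large subunit's stalk, had one 2436 bp beyond its far end (chr2:32966481-32967680, 48 reads, 35.4 to 63.6), and no other gene end was nearer to it. Rpl23a, a protein at the mouth of the exit tunnel, had one 2637 bp from its lower-coordinate end (chr11:78176699-78178298, 58 reads, 44.04 to 74.98), which overlapped an end of Tlcd1 and lay 4 bp from Nek8. Of the 10 islands, 5 overlapped the ribosomal protein gene, 8 lay within 5 kb of another protein-coding gene end as well, and 6 had the ribosomal protein gene as the end nearest to their midpoint.

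**Figure D2:**
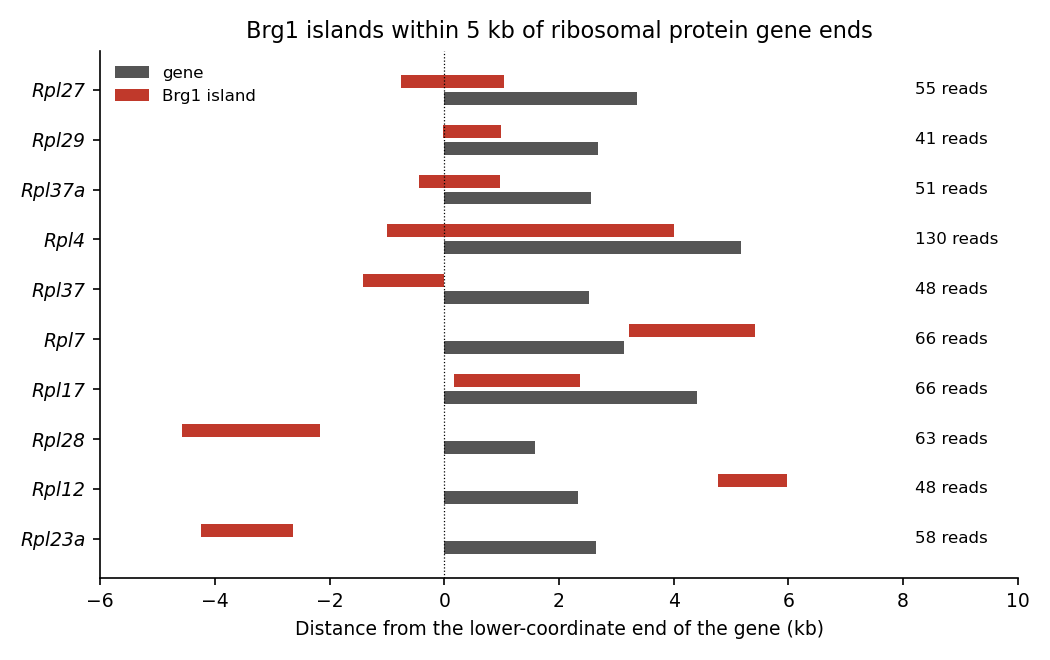
Brg1 islands (red) drawn to scale beside the 10 ribosomal protein genes that have one within 5 kb (grey), against the distance in kb from the lower-coordinate end of each gene. The islands of Rpl27, Rpl29, Rpl37a and Rpl4 lie across that end, that of Rpl17 lies inside the gene, and those of Rpl28, Rpl12 and Rpl23a lie over 2 kb outside.

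An island lay across a listed start in 3 of the 65 members that have one (Rpl4, Rpl27 and Rpl37a; 4.62%, Wilson 95% interval 1.58 to 12.7). The background was 8.57% of 17274 protein-coding genes with a listed start, which lies inside that interval.

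Islands at ribosomal protein genes were narrow and held few reads. Their median was 56.5 reads (range 41 to 130), against 70 for the 2360 islands within 5 kb of any protein-coding gene end. Of the 10, 9 lay below both 70 and the median of all islands, the exception being Rpl4, and 6 lay at or below the lower quartile of 58 reads for islands near gene ends. Their median width was 1700 bp against 2400 bp. Reads per 200 bp, which take out part of the effect of width, did not show the same order: the median was 6.48 against 6.17, and 5 of the 10 islands were denser than that. When only islands with at least the median of 68 reads were used, 1 of 85 members (Rpl4) had an island, where the background was 7.2%. Put by gene, 1 of the 10 members with an island kept one at that threshold, against 55.2% of the 2823 protein-coding genes with an island.

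**Figure D3:**
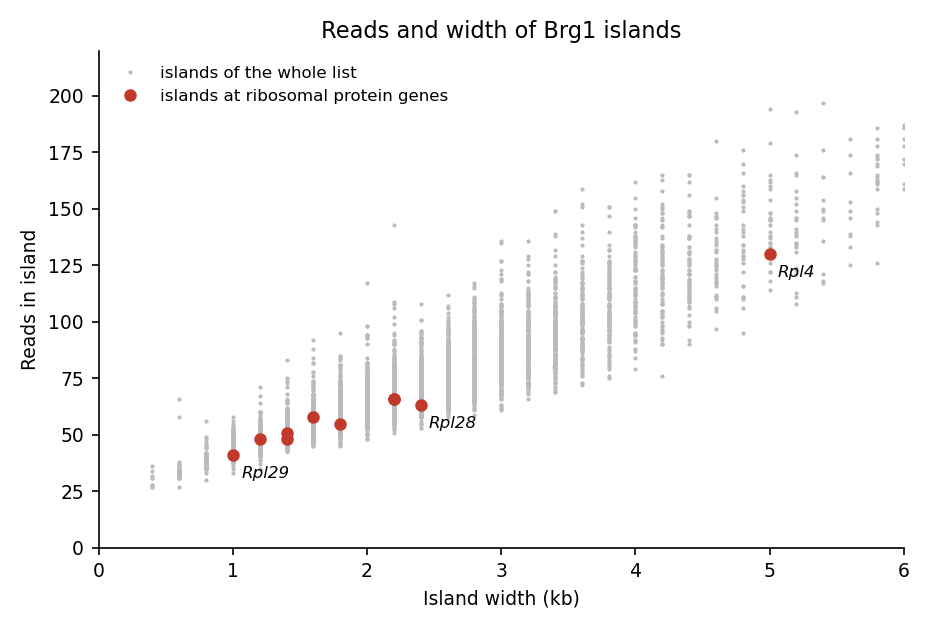
Reads in each island against its width in kb, for the whole list (grey) and for the 10 islands at ribosomal protein genes (red; Rpl7 and Rpl17 coincide at 66 reads). The axes leave out 99 islands over 6 kb wide or over 200 reads. The red points lie within the grey cloud at their width, and 9 of the 10 lie at or under 66 reads.

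Just outside the 5 kb window, 4 of 53 large and 3 of 32 small subunit genes had their nearest island between 5 and 20 kb. That made 7 of the 85 members, and 1699 of all 21631 protein-coding genes had theirs at such a distance. The share of the family was thus close to that of all genes. Among large subunit genes these were Rpl3 at 7.57 kb (45 reads), Rpl18 at 7.64 kb (111 reads), Rpl27a at 12.7 kb (79 reads) and Rpl22 at 18.7 kb (49 reads). The islands near Rpl3 and Rpl18 overlapped ends of other genes, Syngr1 in the first case and Car11 and Dbp in the other. Among small subunit genes Rps10 stood between islands on either side, of 111 reads at 6.21 kb before its start and of 100 reads at 6.36 kb from its far end. The first of these had no other protein-coding gene end within 5 kb, and the second overlapped an end of Nudt3. Rps25 had its nearest island at 9.997 kb (53 reads, over an end of Slc37a4), just inside a window of 10 kb, and Rps15a at 11.3 kb (72 reads, over an end of Arl6ip1). Both islands of Rps10 held more reads than 9 of the 10 islands inside the window.

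The nearest island lay at a median of 88.04 kb from large subunit genes (interquartile range 18.7 to 210.1) and 145.9 kb from small subunit genes (61.3 to 299.9). The median over all protein-coding genes was 126.2 kb. Within 20 kb, 14 of 53 large (26.4%) and 3 of 32 small subunit genes (9.38%) had an island, and 20.9% of all protein-coding genes did. The closest small subunit gene after those named was Rps14 at 25.4 kb, and Rps4x on chromosome X was the farthest at 1291 kb.

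**Figure D4:**
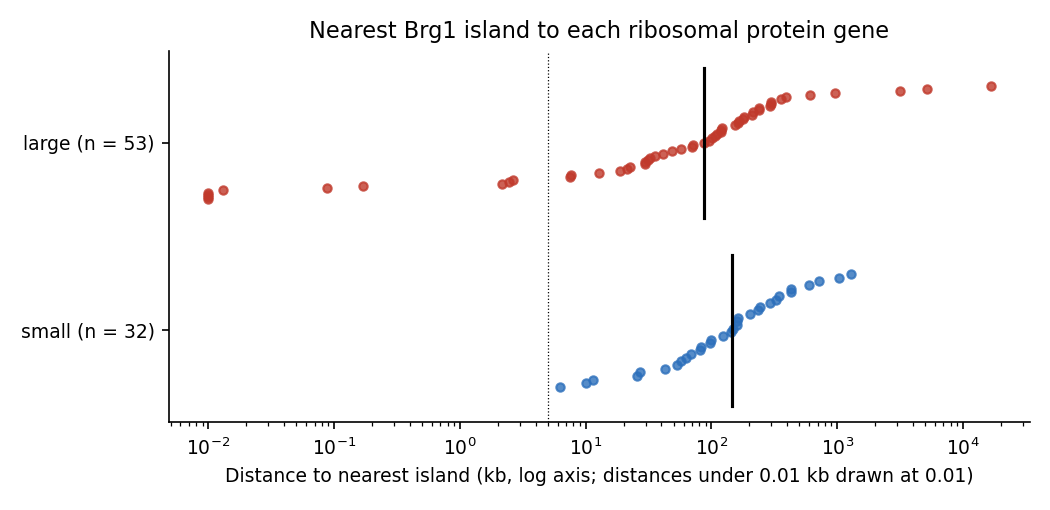
Distance in kb (log axis) from each ribosomal protein gene to its nearest Brg1 island, for 53 large (red) and 32 small subunit genes (blue); each point is 1 gene, spread vertically in order of distance, black bars are medians and the dotted line is the 5 kb window. Islands at distances under 0.01 kb are drawn at 0.01 kb; 10 red and no blue points lie left of the dotted line.

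Gene length was similar in the subunits, with medians of 3175 bp for large and 3106 bp for small subunit genes, against 17330 bp for all protein-coding genes. Members with an island had a median length of 2665 bp (range 1583 to 5176) and those without one 3230 bp. Among the 8605 protein-coding genes no longer than Rps15a, the longest member at 11774 bp, the background was 9.11%. The interval of the family's share, 6.52 to 20.3%, includes both this background and that of all genes. The interval of the small subunit, 0 to 10.7%, includes the short-gene background, and that of the large subunit, 10.6 to 31.4%, lies above it.

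The 4 members on chromosome X, Rpl10, Rpl36a, Rpl39 and Rps4x, had no island within 5 kb, and the nearest lay 1291 to 16590 kb away. Chromosome X held 23 of the 5727 islands. Of the 2823 protein-coding genes with an island within 5 kb, 2809 were autosomal, while 20665 of all 21631 protein-coding genes were. The absence of islands at members on chromosome X is therefore not particular to them. On autosomes the counts were 10 of 50 large subunit genes (20%) and 0 of 31 small subunit genes, and the autosomal background was 13.6%.

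None of the 8 paralogue members with l in the symbol had an island within 5 kb; a Wilson upper bound of 32.4% and 3 counts, which would make 37.5%, leave the share poorly bounded. Rpl3l, Rpl10l and Rpl39l, close relatives of Rpl3, Rpl10 and Rpl39, had their nearest islands at 300.2, 355.8 and 958 kb. Those of Rpl36al, Rpl32l and Rps27l lay at 210.1, 299.6 and 432.4 kb, and those of Rpl7l1 and Rpl22l1 at 70.6 and 239.5 kb. Of the parent genes, Rpl7 had an island within 5 kb, and Rpl3 and Rpl22 had one within 20 kb. Rpl32 and Rps27 had none nearer than 88.04 and 159.4 kb. The stalk genes Rplp0, Rplp1 and Rplp2 had none nearer than 48.7 kb.

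snoRNAs, which guide chemical changes of ribosomal RNA, were annotated inside 5 of the 10 members with an island (13 snoRNA genes, in Rpl4, Rpl12, Rpl17, Rpl23a and Rpl37). Among the 75 members without an island, 25 hosted one (33.3%). By subunit the hosts were 20 of 53 large (37.7%) and 10 of 32 small subunit genes (31.3%). With 10 genes the share of 50% rests on few cases.

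Other genes of ribosome production and translation were taken from 4 fixed lists. The intervals of 3 of them included the background of 13.1%, and that of the short list of RNA polymerase I subunits lay above it. Mitochondrial ribosomal protein genes, which serve the separate ribosome of mitochondria, had one within 5 kb in 14 of 78 (17.9%, Wilson 95% interval 11.0 to 27.9). The highest counts were at Mrps18b with 224 reads, Mrpl52 with 109, Mrpl50 with 85 and Mrpl34 with 78. By subunit they were 10 of 49 Mrpl genes (20.4%) and 4 of 29 Mrps genes (13.8%), a difference of 6.62 percentage points whose Newcombe 95% interval reached from -12.4 to 22.2. Whether the subunit difference differs between cytoplasmic and mitochondrial genes was not tested.

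Ribosome biogenesis factors had an island in 7 of 64 (10.9%, Wilson 95% interval 5.4 to 20.9). Among them were Ubtf, the RNA polymerase I factor that binds ribosomal DNA, with 140 reads at 2363 bp from the gene, Rbm28 with 111, the snoRNP protein gene Nop56 with 81 and nucleolin (Ncl) with 68. Genes named Eif or Eef, mostly translation factors, had an island in 9 of 70 (12.9%, Wilson 95% interval 6.91 to 22.7). They were led by elongation factor 2 (Eef2) with 244 reads, the cap-binding protein gene Eif4e with 77 and the helicase gene Eif4a1 with 72. The pattern also took in Eif4enif1, which lay 2146 bp from an island of 20753 reads over 78400 bp that stands apart from the rest of the list. RNA polymerase I, which transcribes ribosomal RNA, had an island at 3 of 5 subunit genes (60%, Wilson 95% interval 23.1 to 88.2, against 13.1% of all genes): Polr1e with 65 reads, and Polr1b and Polr1c with 46 each. Within 1 kb the count was 2 of 5, and with islands of at least the median reads it was 0 of 5, so the share rests on 3 islands of few reads. The median over the islands of each group was 64.5 reads for mitochondrial ribosomal protein genes, 68 for biogenesis factors and 67 for translation factors. It was 46 over the 3 islands of RNA polymerase I subunits, and 56.5 for cytoplasmic ribosomal protein genes.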

How the data were processed

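The data were 1 Brg1 ChIP-seq island list; p-values between conditions cannot be had from it. The deposited list gives per island a position and a whole number without a header, taken from its values as the authors' count of reads; it was used to describe, rank and filter islands within the list. Per the submitters' processing notes, SICER 1.1, Bowtie 0.12.7 and Picard 1.127 were used with builds mm10 and mm9, without a role for each; caller settings, use of the input and handling of reads that match several places were not given in the sources used here. Coordinates were read as mm10 and are printed 1-based: an island covered a listed start in 1481 genes, against 138 and 159 with the list moved by 100 kb either way.

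Genes came from the RefSeq table of GRCm38.p6 (autosomes and X), starts, strands and promoters from the RefSeq promoter table. Promoters matched 65 of 85 members. An island belonged to a gene when any part lay within 5 kb of either gene end. All list symbols matched. Shares carry Wilson 95%, differences Newcombe 95% and reads exact Poisson 95% intervals (Python 3.11.15, SciPy 1.17.1, statsmodels 0.14.6). The gene assignment was tested on simulated islands. Named were members with an island within 5 kb, members with one up to 20 kb away, paralogues with l in the symbol and their parents, and up to 4 genes per related group by reads; Rps14, Rps4x and the stalk genes were added after their values were seen. The members and lists were chosen with earlier results of these data known. Alternatives were other windows, starts only, gene bodies, midpoints, islands with more reads or at least 1 kb wide, the nearest end only, autosomes, no paralogues, and, added after seeing the data, leaving out Rps3a1, Rpl7l1 and Rpl22l1.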

Additional observations from a re-analysis of the deposited data

How the results depend on the processing

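Of 59 alternative values, 43 stayed within tolerance (1.5 times for a count, the reported value's 95% interval otherwise), 16 moved and none reversed. The tolerance is wide for the difference between subunits: it counts 16.4 (window of 10 kb), 14.6 (starts only) and 11.3 percentage points (nearest end only) as unmoved from 18.9, although their intervals include 0 and the reported one does not. The 10 members with an island became 6 with starts only or with the nearest gene end only, and 1 with islands of at least the median reads; the large subunit counts were the same numbers. The small subunit count of 0 became 2 with a window of 10 kb. The difference between subunits was 1.89 percentage points with islands of at least the median reads (Newcombe 95% interval -8.94 to 9.94). It was positive in all settings, but where the small subunit count is 0 it cannot be negative. Only the window of 10 kb gave another small subunit count, so the lack of a reversal carries little weight. Gene bodies, midpoints, islands of at least 1 kb, autosomes and leaving out paralogues gave 10 large and 0 small subunit genes each. These settings had little room to change the counts. Gene bodies could add islands only for Rps15a, and the others can only remove islands or genes. All 10 islands were at least 1000 bp wide, and their genes were autosomal and not paralogues with l in the symbol. The median of 56.5 reads was also replaced by the median of reads per 200 bp over the same islands, 6.48. This is a change of unit, and it is counted among the 16 values that moved. The related groups together fell from 33 to 14 of 217 genes with islands of at least the median reads (15.2% to 6.45%). The background over all protein-coding genes fell from 13.1% to 7.2%, so the fall is not particular to these groups. The background of 13.1% was 9.11% among short genes and 13.6% on autosomes. Where counts fell, fewer islands, ends or genes entered by construction. The library's total depth is not known, and 9 of the 10 islands hold fewer reads than the list's median of 68. No paired analysis was possible because there was 1 ChIP library.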

Other observations

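Pseudogenes named after ribosomal protein genes, most of them processed copies without the parent promoter, had no island within 1 kb of an end (0 of 318, where 3 counts would make 0.943% and the Wilson 95% upper bound is 1.19%). Over all 10328 annotated pseudogenes the share was 0.678% (70 genes), which lies under that limit, so a difference was not detectable.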
